A study of Mus musculus with 12 samples.

Results

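The MHC class II antigen presentation genes described here are 7 genes, Ciita, H2-Aa, H2-Ab1, H2-Eb1, Cd74, H2-DMa and H2-DMb1. They were taken by symbol, as every probe whose platform annotation equals one of these names, which gave 13 of the 45281 probes on the array. All 13 probes and all 7 genes passed the filter on dim probes, which left 9388 of 19057 annotated genes for testing.

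The cells were erythroblasts, the precursors of red cells, taken from mouse bone marrow by sorting for the erythroid surface protein Ter119 and for high CD71, the transferrin receptor. Mice with a knock-in of cyclin E carrying the substitutions T74A and T393A were compared with wild type littermates, all on strain background 129, and their ages are not given in the labels. Each genotype was run on 6 of 12 Illumina bead arrays with a single colour, and neighbouring array numbers were averaged as duplicates, which gave 3 wild type samples (arrays 1 and 2, 7 and 8, 9 and 10) and 3 knock-in samples (arrays 3 and 4, 5 and 6, 11 and 12). Since no label ties a sample to its own animal, the p-values describe the spread among these 6 samples, which could be technical, and the number of arrays limits the precision.

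MHC class II molecules are heterodimers of an alpha and a beta chain that display peptides from the endocytic pathway to CD4-positive T cells. The invariant chain Cd74 escorts newly made dimers and blocks their groove, and the H2-DM heterodimer exchanges the remaining invariant chain fragment for peptide. The transactivator Ciita drives these genes through a protein complex of RFX, CREB and NF-Y factors seated on the X and Y boxes of their promoters. In bone marrow the pathway is known from B cells, dendritic cells, macrophages and monocytes, and late erythroblasts are not a classical source of it.

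Promoter sequences are shown because the X and Y boxes are what these genes are known to share, a feature the choice by symbol did not use. RefSeq windows of the 250 bases before the gene start, on build GRCm38.p6, were at hand for 4 of the 7 genes and for their pathway partner H2-Ob. The letters searched, on both strands, were CTNGNAAC for an X-like match and TGATTGG for the Y box, and a pair was an X-like match followed by a Y match on the same strand with 10 to 35 bases between them. The paired matches do not overlap each other, and the letters were chosen after the member promoters had been read. Each line runs 5′ to 3′ on the gene's strand, and capitals mark the X-like match and then the Y match.

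H2-Aa: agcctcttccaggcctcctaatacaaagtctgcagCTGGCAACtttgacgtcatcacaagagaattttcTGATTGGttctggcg
H2-Eb1: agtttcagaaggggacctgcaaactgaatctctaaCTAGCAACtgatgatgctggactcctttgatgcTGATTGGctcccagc
H2-DMb1: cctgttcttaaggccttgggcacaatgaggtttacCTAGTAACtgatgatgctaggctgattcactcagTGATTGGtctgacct
H2-Ob: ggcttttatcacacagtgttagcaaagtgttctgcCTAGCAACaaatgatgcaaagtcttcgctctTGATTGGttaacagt

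The H2-Aa stretch lies at chr17:34287859-34287942 on the minus strand, with the X-like match starting 84 and the Y match 50 bases before the gene start. The H2-Eb1 stretch lies at chr17:34305738-34305820 on the plus strand, with the matches starting 94 and 61 bases before the start. The H2-DMb1 stretch lies at chr17:34153059-34153142 on the plus strand, with the matches at 97 and 63 bases. The H2-Ob stretch lies at chr17:34238780-34238860 on the plus strand, with the matches at 90 and 59 bases. The gap between the matches was 26 bases in H2-Aa and H2-DMb1, 25 in H2-Eb1 and 23 in H2-Ob. The pair was found in 3 of the 4 members with a window, and H2-DMa held neither match in its windows. Of all 32851 promoter windows, 10.9% held an X-like match, 7.23% a Y match and 0.07% the pair. Because the letters were chosen with the member promoters already read, setting the members beside these shares is no test. A match describes the letters of the window and not binding.

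All 7 genes had a lower mean in the knock-in samples than in wild type, by 0.13 to 0.46 on the log2 scale, and none passed the test. The median of the 7 differences was -0.39, against -0.03 for all genes tested. Of all 9388 genes, 0% were called lower and 0.0852% higher at an adjusted p of 0.05, the latter being 8 genes, with limma's moderated test and Benjamini-Hochberg adjustment. At an unadjusted p of 0.05, 0 of the 7 genes passed, while 290 genes in all (3.09%) were lower and 522 (5.56%) higher. A lower mean was found for 58.4% of all genes, which is the figure to set beside 7 of 7. The 7 genes varied together across the samples (median r = 0.857), so they do not count as 7 separate observations. With each array scaled to its 75th percentile instead of quantile normalization, 6 of the 7 stayed lower, the median was -0.17 and H2-DMb1 stood at 0.0013.

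**Figure D1:**
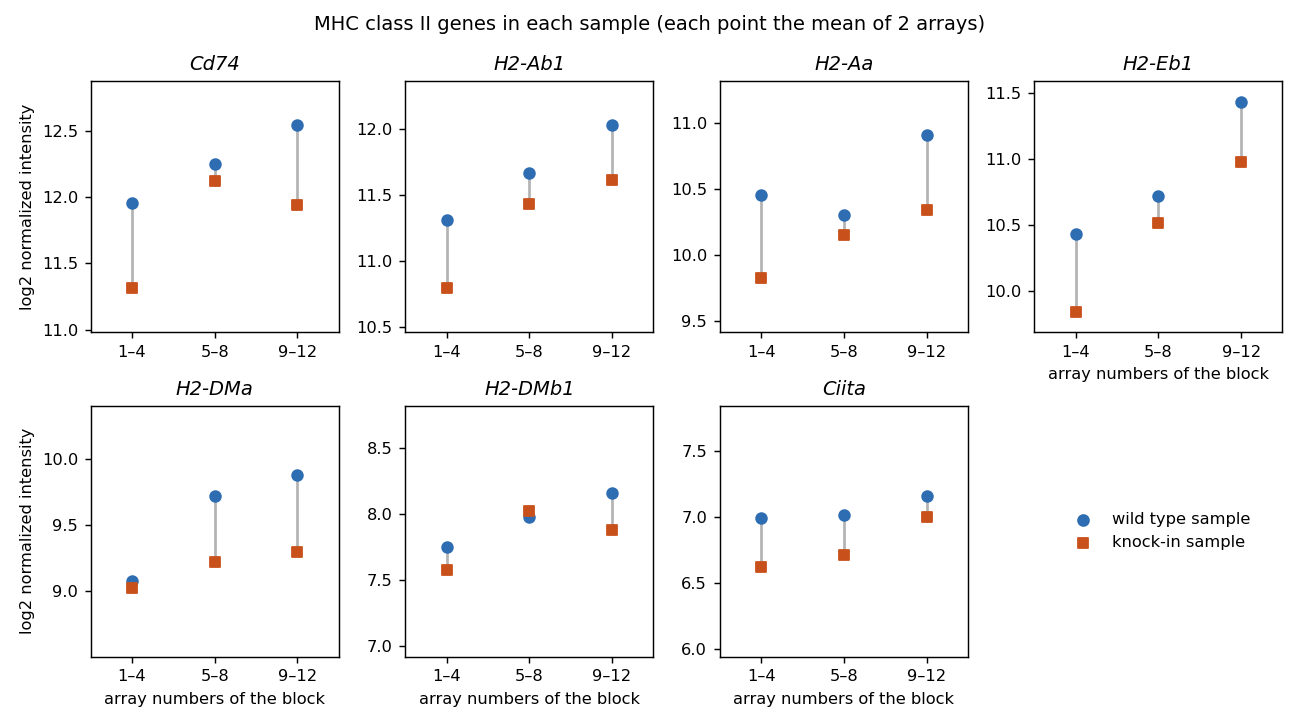
Each panel plots 1 gene, with log2 normalized intensity on the y axis and the 3 blocks of 4 adjacent array numbers on the x axis; blue circles are wild type samples, orange squares knock-in samples, each the mean of 2 arrays, and grey lines join the samples of a block. After quantile normalization the knock-in sample lies below the wild type sample in every block except for H2-DMb1 in arrays 5 to 8, where it lies 0.05 above, and the 2 genotypes overlap in every panel.

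Ciita, the transactivator of the pathway, was dim. Its log2 intensity was 6.99, 7.01 and 7.16 in the wild type samples and 6.62, 6.71 and 7.00 in the knock-in samples. The highest knock-in sample reached into the wild type range, and the other knock-in samples lay below it. The knock-in mean was lower by 0.28 ± 0.13 (SE, n = 3 and 3), a level 0.825 of wild type with a 95% interval of 0.668 to 1.02 and an adjusted p of 0.643. Folds of dim genes are understated here because an offset of 50 intensity units was added before the logarithm. Without that correction the Ciita difference was -0.59 (adjusted p = 0.701), and it was also -0.59 in the authors' processed values. As the mean of both its probes it was -0.14 (adjusted p = 0.883). A second Ciita probe, above the background limit on 3 of 6 arrays of each genotype, showed a log2 difference of 0.00 ± 0.20 (SE).

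H2-Aa encodes the alpha chain of the I-A molecule. Its log2 intensity was 10.46, 10.30 and 10.91 in wild type and 9.83, 10.16 and 10.34 in the knock-in samples. Only the edge of the ranges overlapped, where knock-in arrays 11 and 12 stood above wild type arrays 7 and 8. The difference was -0.45 ± 0.20 (SE), a level 0.733 of wild type (95% interval 0.523 to 1.03, adjusted p = 0.643).

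H2-Ab1, the beta chain that pairs with H2-Aa, measured 11.32, 11.67 and 12.03 in wild type and 10.80, 11.43 and 11.62 in the knock-in samples on the log2 scale. The knock-in samples on arrays 5 to 6 and 11 to 12 lay above the lowest wild type sample. The difference was -0.39 ± 0.27 (SE), a level 0.764 of wild type (95% interval 0.490 to 1.19, adjusted p = 0.829). Its other probes gave log2 differences of -0.63 ± 0.57 and -0.60 ± 0.33 (SE).

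H2-Eb1 encodes the beta chain of the I-E molecule. Wild type samples measured 10.43, 10.72 and 11.44 and knock-in samples 9.85, 10.52 and 10.98 on the log2 scale. Both genotypes were lowest on arrays 1 to 4 and highest on arrays 9 to 12, and the knock-in samples on arrays 5 to 6 and 11 to 12 lay within the wild type range. The difference was -0.42 ± 0.36 (SE), a level 0.750 of wild type (95% interval 0.413 to 1.36, adjusted p = 0.904). The gene of its partner alpha chain, H2-Ea, was above the background limit on 0 of 12 arrays. The H2-Eb1 values are thus those of a beta chain transcript, and whether these cells make an I-E dimer was not tested.

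Cd74, the invariant chain, measured 11.96, 12.25 and 12.55 in wild type and 11.31, 12.12 and 11.94 in the knock-in samples on the log2 scale. The knock-in sample on arrays 3 and 4 was the lowest of all, and the one on arrays 5 and 6 stood above the lowest wild type sample. The difference was -0.46 ± 0.25 (SE), a level 0.727 of wild type (95% interval 0.481 to 1.10, adjusted p = 0.729). The other probes of Cd74 gave log2 differences of -0.44 ± 0.43 and -0.42 ± 0.21 (SE).

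H2-DMa encodes the alpha chain of the peptide editor. Its log2 intensity was 9.08, 9.72 and 9.88 in wild type and 9.02, 9.22 and 9.29 in the knock-in samples. The wild type sample on arrays 1 and 2 lay among the knock-in samples, and the other wild type samples lay above them all. The difference was -0.38 ± 0.22 (SE), a level 0.769 of wild type (95% interval 0.534 to 1.11, adjusted p = 0.758). Its second probe was the one probe of the 13 whose genotypes did not overlap, with 8.63, 8.78 and 9.28 in wild type and 8.52, 8.37 and 8.47 in the knock-in samples and a log2 difference of -0.44 (95% interval -0.87 to -0.02). For comparison, all knock-in samples lay below all wild type samples in 6.47% of genes, and the genotypes were apart in either direction in 13.7%.

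H2-DMb1, a beta chain of the same editor, differed least. Wild type samples measured 7.75, 7.98 and 8.16 and knock-in samples 7.58, 8.03 and 7.88 on the log2 scale. The knock-in samples on arrays 5 to 6 and 11 to 12 lay within the wild type range. The difference was -0.13 ± 0.16 (SE), a level 0.911 of wild type (95% interval 0.698 to 1.19, adjusted p = 0.952).

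**Figure D2:**
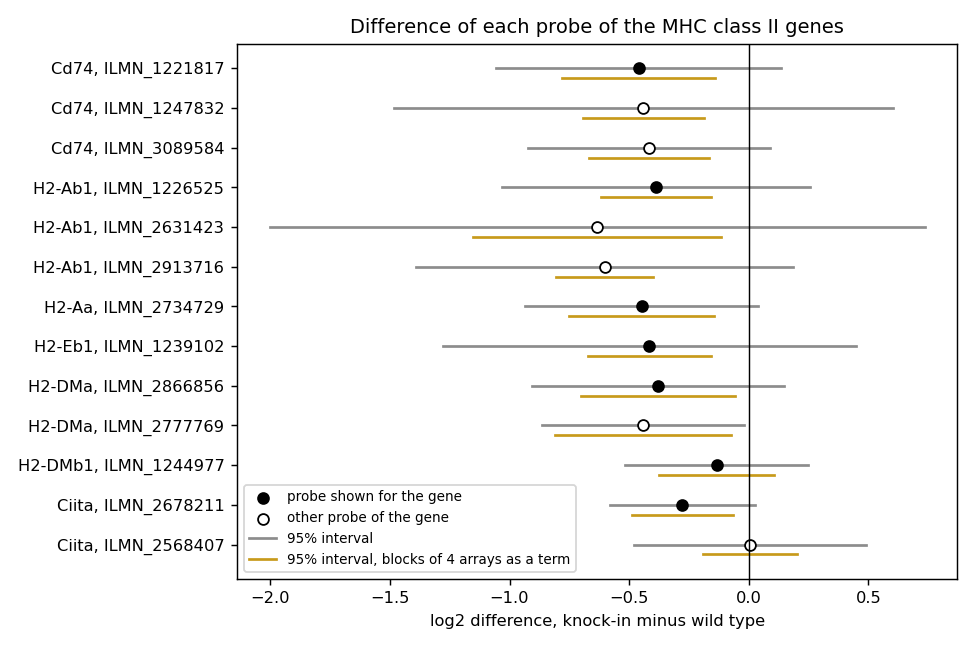
Log2 difference between knock-in and wild type means for each of the 13 probes, 1 row a probe; filled circles are the probe shown for the gene, open circles its other probes, grey bars the 95% interval of the comparison and ochre bars the interval with blocks of 4 arrays as a term. Differences run from -0.63 to 0.00, and the second H2-DMa probe is the only one whose grey interval leaves out 0.

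Among all genes tested, 1.8% had a lower difference than Cd74, 1.9% lower than H2-Aa, 2.29% lower than H2-Eb1, 2.81% lower than H2-Ab1 and 2.97% lower than H2-DMa. The share was 6.91% for Ciita and 23.5% for H2-DMb1. The differences of Cd74, H2-Aa, H2-Eb1, H2-Ab1 and H2-DMa thus stood near the low end of the distribution, and that of H2-DMb1 did not. The 95% intervals of all 7 genes held 0.

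For 6 of the 7 genes, all but Ciita, the range of block means was larger than the difference between genotype means. These measures are unlike, since a range over several means tends to exceed a difference between genotype means. The blocks were also chosen for the smallest spread, which favours a wide range between them. The comparison therefore does not rank blocks against genotype. Across blocks of 4 adjacent arrays (1 to 4, 5 to 8 and 9 to 12, each with 1 sample of both genotypes), the block mean of H2-Eb1 ran over 1.07 on the log2 scale, that of H2-Ab1 over 0.77, Cd74 over 0.61, H2-DMa over 0.54 and H2-Aa over 0.49. For H2-DMb1 the range was 0.35 and for Ciita 0.27. Duplicate arrays of a sample differed by at most 0.09 (H2-DMb1) to 0.36 (H2-DMa). The labels name no batch, litter or chip.

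Within blocks the knock-in sample was lower in each of the 3 for 6 of the 7 genes, which holds for 23.5% of all genes, and H2-DMb1 was higher in arrays 5 to 8. The difference of Cd74 was -0.64 in arrays 1 to 4, -0.13 in arrays 5 to 8 and -0.61 in arrays 9 to 12. H2-Aa gave -0.63, -0.15 and -0.57, H2-Eb1 -0.58, -0.21 and -0.46, and H2-Ab1 -0.52, -0.23 and -0.41 in the same order. Thus, by the probes shown, Cd74 and the I-A and I-E chains differed least in arrays 5 to 8. Their other probes did not all follow. In the same order, those of H2-Ab1 gave -0.10, -1.16 and -0.64, and -0.51, -0.61 and -0.69. Those of Cd74 gave -0.30, -0.38 and -0.65, and -0.56, -0.21 and -0.48. Ciita gave -0.37, -0.30 and -0.16, and H2-DMa -0.05, -0.50 and -0.59, so these followed another order.

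With the blocks as a term in the model, 6 of the 7 genes had an unadjusted p under 0.05, as had 8.13% of all genes in the lower direction. None of the 7 passed adjustment, with adjusted p from 0.137 for H2-Ab1 to 0.562 for H2-DMb1, while that model called 0.266% of all genes lower and 0.671% higher. The blocks were chosen in an earlier look at these data as the matching with the smallest spread, which favours low p-values. Fitted probe by probe with the blocks, 1 of the 13 probes, the H2-Ab1 probe with a difference of -0.60, had an adjusted p of 0.0452. That fit, added after the data were seen, called 47 of 14317 probes (0.328%) lower and 159 (1.11%) higher.

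The normalization between arrays bears on these values. The deposited intensities, before normalization, were read by the probe shown for each gene. In arrays 5 to 8, 5 of the 7 genes were brighter in the knock-in sample than in the wild type sample. The count was 1 in arrays 1 to 4 and 2 in arrays 9 to 12. Other probes did not all follow in arrays 5 to 8. Both other H2-Ab1 probes were dimmer in knock-in, at 471.5 and 366 units against 792.3 and 795.3, and 597 and 506.9 against 696.2 and 656.4. Of the other Cd74 probes, the dimmer read 238.8 and 215.4 units in knock-in against 278 and 247.7. The brighter read 4615.5 and 4273.8 against 3749.6 and 3955.4. The Cd74 probe shown read 6092.8 and 5000.5 units on knock-in arrays 5 and 6 and 4861.6 and 4646.3 on wild type arrays 7 and 8. The mean intensity over all probes was 247.2 and 230.0 on those knock-in arrays and 193.8 and 198.6 on those wild type arrays. Over all 12 arrays the mean intensity ran from 134.5 to 247.2 units and 15988 to 18227 probes lay above the background limit.

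The values of the 7 genes varied together across the 6 samples. Over the 21 pairs of genes Pearson's r ran from 0.595 (Ciita and H2-DMb1) to 0.977 (H2-Ab1 and H2-Eb1), with a median of 0.857. After removal of each genotype's mean it ran from 0.528 to 0.988 with a median of 0.822. These points share arrays and normalization, and r is given as a description over 6 samples.

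The pathway around the 7 genes was described with a list of 31 further names, of which 28 were on the array and 24 passed the filter. Their median difference was -0.04 with 13 lower and 11 higher, and it was 0.03 with 11 lower under 75th percentile scaling. None was called. The H2-O heterodimer, known to restrain H2-DM, was represented by H2-Oa at -0.32 ± 0.14 and H2-Ob at -0.30 ± 0.14 (log2 difference and SE), and the second DM beta chain H2-DMb2 by -0.31 ± 0.17. These 3 values are close to that of H2-DMa in size, with adjusted p from 0.638 to 0.742.

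The factors that seat Ciita on the promoter were mixed in direction. Nfyb, a subunit of the CCAAT-binding factor NF-Y, was at 0.94 ± 0.21 (SE), with 9.12, 8.61 and 8.42 in wild type and 9.94, 9.52 and 9.53 in the knock-in samples, with no overlap. Its adjusted p was 0.205, and 0.0381 with the blocks as a term, the only gene of the list that passed there. Nfyc, another subunit, was at 0.45 ± 0.15 (SE, adjusted p = 0.437), while Nfya was at -0.11, Rfxap at 0.07, Rfxank at -0.01 and Creb1 at 0.19. Rfx5 was above the background limit on 1 of 12 arrays and was not tested.

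Of the proteases and other enzymes that prepare the groove or its peptides, Ctss, which trims the invariant chain, was at 0.14 ± 0.24, Lgmn at -0.46 ± 0.43, Ctsh at -0.39 ± 0.25 and Ifi30, a lysosomal thiol reductase, at -0.28 ± 0.14 (log2 difference and SE). Ctsl was above the limit on 0 arrays. The ubiquitin ligases that remove class II from the surface, Marchf1 and Marchf8, were at 0.06 and 0.12. Cd40, a costimulatory receptor of antigen-presenting cells, was at -0.46 ± 0.13 (SE), with 7.33, 7.45 and 7.28 in wild type and 6.67, 7.09 and 6.93 in the knock-in samples. Its genotypes did not overlap, its unadjusted limma p was 0.0118 and its adjusted p 0.320. Its partner on the list, Cd86, was at 0.02, and Cd80 was above the limit on 2 arrays.

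Of the class I pathway, 18 of 22 listed genes were tested, and 12 had a lower mean with a list median of -0.14, which became 0.01 with 9 of 18 lower under 75th percentile scaling. None was called. Psmb10, an immunoproteasome subunit, was at -0.33 ± 0.11 (SE, adjusted p = 0.389) and the class I heavy chain H2-Q7 at -0.31 ± 0.12 (SE, adjusted p = 0.548), and neither gene's genotypes overlapped. B2m, the light chain, was at 0.08, and Psmb8 at -0.53 ± 0.24 (SE).

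Interferon gamma is a known inducer of Ciita, and 9 of 11 genes on that input were tested, with 6 lower and a median of -0.05 (0.11 with 2 lower under 75th percentile scaling). Irf4, a factor of B cells and dendritic cells, was at -0.75 ± 0.18 (SE, adjusted p = 0.255), and Jak2, a kinase of the interferon gamma and erythropoietin receptors, at 0.68 ± 0.28 (SE, adjusted p = 0.562). Irf8, a factor of myeloid cells and B cells, was at -0.34 ± 0.15 and the receptor chain Ifngr1 at -0.03 ± 0.12 (SE). None of the 9 was called.

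**Figure D3:**
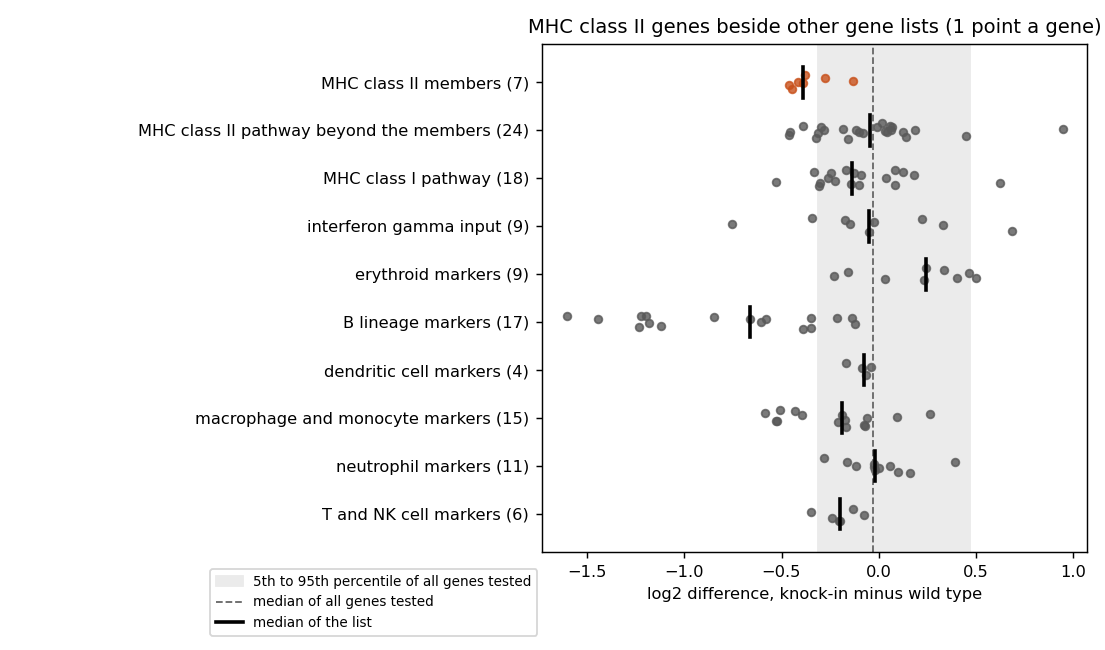
Log2 difference between knock-in and wild type on the x axis for every measured gene of the 7 and of 9 other lists, 1 point a gene, with list sizes in parentheses; black bars are list medians, the dashed line the median of all genes tested and the grey band their 5th to 95th percentile. The median of the 7 genes is -0.39, that of the B lineage markers -0.66 and that of the further pathway genes -0.04.

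Markers of cell types that could lie in the gate were read beside the 7 genes. In bulk samples fewer cells of a type and less RNA per cell cannot be told apart. Of 22 B lineage markers, 17 were measured, and 17 of 17 had lower means in knock-in under the main normalization, cyclic loess and 75th percentile scaling alike. Their median difference was -0.66, 10 had an unadjusted p under 0.05, and in 11 the knock-in samples lay below all wild type samples. None was called, and 3 were called with the blocks as a term (Cd79b, Blnk and Pou2af1). The summed level of the list, as normalized intensity above the offset, was 4178 to 7901 units in wild type and 2086 to 2724 in knock-in samples.

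The brightest B lineage markers were Cd79b, Vpreb3, Igll1 and Fcrla, with adjusted limma p from 0.139 to 0.270. Cd79b, a chain of the B cell receptor, was at -1.12 ± 0.20 and Vpreb3 at -1.60 ± 0.28 (log2 difference and SE). The surrogate light chain gene Igll1 was at -1.45 ± 0.36 and Fcrla at -1.20 ± 0.29. Pax5, Vpreb2 and Cr2 were above the limit on 0 arrays. The part of B lineage cells in the values of the 7 genes was not tested.

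Of 19 macrophage and monocyte names, 15 were measured and 13 had a lower mean, 11 of them in each block, with a median of -0.19 (-0.10 with 11 lower under 75th percentile scaling). None was called. Axl was at -0.58 ± 0.50, the complement genes C1qb at -0.52 ± 0.62 and C1qc at -0.53 ± 0.60, and Vcam1 at -0.17 ± 0.35 (log2 difference and SE). Csf1r, brighter than C1qc, was at -0.19 ± 0.20 (SE). Ccr2, a monocyte chemokine receptor, was at 0.26 ± 0.09 (SE, adjusted p = 0.387). The summed level was 2259 to 5832 units in wild type and 1719 to 3870 in knock-in samples, and the part of these cells was not tested.

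Only 4 of 15 dendritic cell markers passed the filter (Siglech, Bst2, Ccr7 and Batf3), with a median of -0.08 and a summed level of 253.1 to 353 units in wild type and 246.4 to 283.8 in knock-in samples. The defining markers Xcr1 and Cd209a were above the limit on 0 arrays, Itgax and Flt3 on 1, Clec9a on 2 and Zbtb46 on 4. Of 10 T and NK cell markers 6 were measured, with a median of -0.20 and summed levels of 1188 to 2343 and 1189 to 2036 units in the same order. All 4 dendritic cell and all 6 T and NK cell markers measured had a lower mean in knock-in. Under 75th percentile scaling 3 and 5 of them did. All 11 neutrophil markers were measured, at 161000 to 217200 and 147600 to 212000 units, with a median of -0.02, a difference of list means of 0.01 and a median of 0.15 under 75th percentile scaling.

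The sorted type itself was well represented. The 9 erythroid markers analysed were all measured, with summed levels of 109800 to 117800 units in wild type and 105100 to 112300 in knock-in samples, and 7 had a higher mean in knock-in with a median of 0.24 (9 with a median of 0.52 under 75th percentile scaling). Tfrc, which encodes the sorted CD71, was at 0.40 ± 0.43, Klf1 at 0.50 ± 0.32 and Alas2 at -0.23 ± 0.12 (log2 difference and SE). Hba-a1 and Slc4a1, brighter than Tfrc and Klf1, were at -0.16 ± 0.11 and 0.03 ± 0.18. None of these was called. The summed level of the 7 class II genes was 9846 to 15890 units in wild type and 6613 to 11040 in knock-in samples.

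The profile of the 7 genes over the 6 samples was set against those of the lists, as the mean of z-scored values, and r is a description over 6 samples that share arrays and normalization. The further pathway genes gave r = 0.907 and, after removal of genotype means, 0.97. The macrophage and monocyte markers gave 0.842 and 0.894. The B lineage markers gave 0.358 and -0.484. Dendritic cell markers gave 0.644 and 0.377, T and NK cell markers 0.461 and 0.191, class I genes 0.211 and -0.266, and interferon gamma input -0.02 and -0.134. The neutrophil and erythroid markers gave -0.137 and -0.28 before and -0.227 and -0.146 after removal of genotype means.

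**Figure D4:**
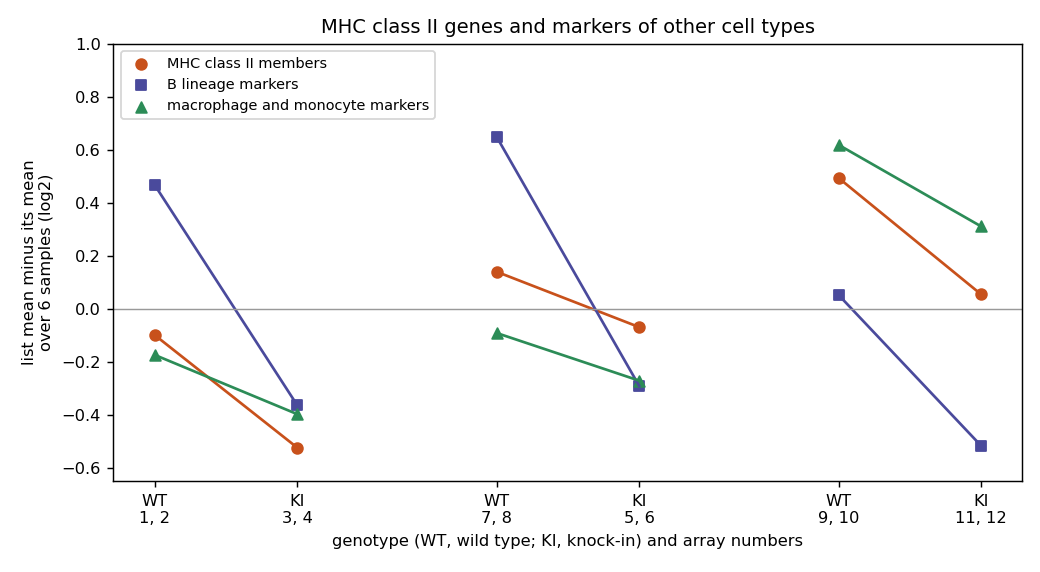
Mean log2 value of 3 lists in each sample minus the list's mean over the 6 samples (y axis), by genotype and array numbers (x axis), with lines joining the samples of a block; circles are the 7 class II genes, squares the B lineage markers and triangles the macrophage and monocyte markers. The class II genes are highest on wild type arrays 9 and 10 at 0.49, as are the macrophage and monocyte markers at 0.62, whereas the B lineage markers stand at 0.05 there and at 0.65 on wild type arrays 7 and 8.

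Of 9381 other genes, 39 followed the mean profile of the 7 with r over 0.95. The 10 nearest were Ergic3 (r = 0.9966), Tsr3 (0.9955), Vmn1r16 (0.9911), Cog1 (0.9908), Rhobtb1 (0.9812), Irak1 (0.9805), Dalrd3 (0.9767), Trmt61a (0.9755), Ddt (0.9754) and Ddx51 (0.9732). Their differences ran from -0.30 for Ergic3 to -0.05 for Vmn1r16 and none was called. With 6 samples and this many genes, such values of r are a ranking and no more.

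The 5 H2 members lie together in the class II region of chromosome 17, and their neighbours were read in RefSeq gene order. Of 26 tested genes that lie between the outermost members or among the 10 on either side, 22 had lower means with a median of -0.16 (17 lower with a median of -0.05 under 75th percentile scaling) and none was called. Among all genes tested, 58.4% had a lower mean. The 6 genes between the members were all lower, with a median of -0.30, Psmb8 at -0.53 and Tap1 at -0.14 at the ends. All 6 also stand on the class I or further class II lists above, as do H2-K1, H2-Oa and H2-Eb2 on the flanks. Their values are therefore not separate observations from those lists. The flanks had medians of -0.16 and -0.10. Brd2, a chromatin reader next to H2-DMa that was singled out after its value was seen, was at 0.90 ± 0.11 (SE, adjusted p = 0.0766). In the model with blocks its adjusted p was 0.0493, and it was the 1 neighbour that passed there. Every knock-in sample of it lay above every wild type sample, so neighbours in position differed in direction.

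**Figure D5:**
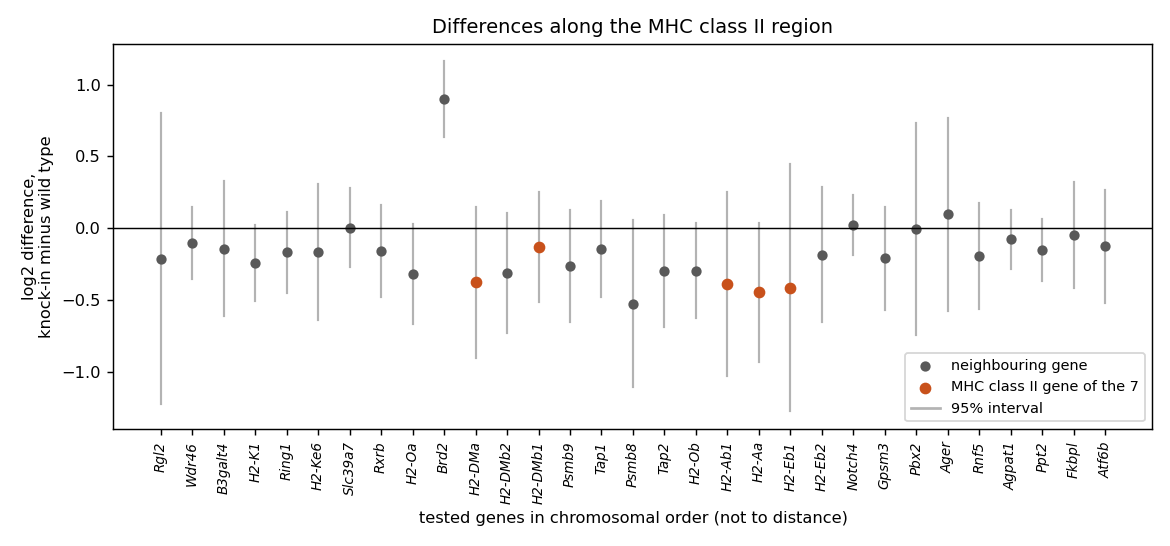
Log2 difference between knock-in and wild type (y axis) for tested genes in their order along chromosome 17, not drawn to distance; orange points are class II members, grey points their neighbours and grey bars 95% intervals. Members run from -0.45 for H2-Aa to -0.13 for H2-DMb1, and Brd2 stands apart at 0.90.

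Leaving out 1 sample at a time kept the direction and moved the size. The median difference of the 7 genes shrank to -0.20 when the knock-in sample of arrays 3 and 4 was dropped, and to -0.22 when the wild type sample of arrays 9 and 10 was dropped. It grew to -0.57 with the wild type sample of arrays 1 and 2 left out and to -0.53 with the knock-in sample of arrays 11 and 12 left out. For the knock-in sample of arrays 5 and 6 and the wild type sample of arrays 7 and 8 it came to -0.45 and -0.39. All 7 genes were lower in each of these 6 fits, and 0 of them were called in any.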

How the data were processed

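Per the labels' protocols, Trizol-extracted RNA was made into biotin-labelled cRNA for Illumina arrays, and the submitters' processing notes name GenomeStudio. The intensity values deposited by the authors were background-subtracted, as read from the values, but not normalized (33.05% to 37.02% lie below 0 on each array), and a second deposited table of processed intensities served as an alternative. No source used here gives the array's genome build.

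Intensities were corrected with normexp (offset 50), quantile-normalized and taken to log2. Adjacent arrays were averaged after a check on log2 values from which each gene's mean over all arrays had been removed. On these centred values, pairs correlated at 0.852 to 0.941, other arrays of a genotype at -0.40 to 0.19. These r values do not describe the correlation of the uncentred array values. Kept were 16894 probes above the 90th percentile of mirrored negative values (6.6 to 7.7 units) on at least 6 arrays, and each gene was shown by its probe with the highest mean. The test was limma 3.58.1 (R 4.3.3; lmFit, eBayes), adjusted by Benjamini-Hochberg over all 9388 genes, threshold 0.05. Of the probes, 34885 had 1 symbol, 18 several and 10378 none. The fitting was tested on simulated data. RefSeq supplied promoter sequences and gene order.

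The members and lists were chosen with earlier results of these data known. Named are all members, pathway list genes with unadjusted limma p under 0.05 or otherwise up to 4 by role, and the 10 genes nearest in profile. Of the cell type lists some of the brightest markers are named, and none of the neutrophil list. Other names were added after their values were seen.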

Additional observations from a re-analysis of the deposited data

How the results depend on the processing

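By the probe shown for each gene, none of the 7 was called in 15 other settings, 6 fits without a sample and 12 without a single array, and their lowest adjusted p was 0.0605 (Ciita, with 12 arrays as 12 samples). H2-DMb1 changed sign, to 0.0013, under 75th percentile scaling, and the cause was not tested. The median of the 7, -0.39 as reported, ran from -0.58 with array weights to -0.17 under 75th percentile scaling. The count of genes called was more sensitive than the members. Against 8 higher and 0 lower (290 lower at an unadjusted p under 0.05), there were 13 higher without normexp and 13 in the authors' values, 16 higher with eBayes trend and robust, 34 higher and 10 lower with array weights, 536 and 324 with 12 arrays as 12 samples, 237 and 46 with duplicates as a random block, 63 and 25 with blocks of 4 arrays, and 159 and 47 probe by probe with blocks, a setting added after the data were seen. The mean of a gene's probes gave 1 lower. Leaving out 1 sample gave 0 to 4 higher and 0 to 2 lower (2 without wild type arrays 9 and 10), and leaving out knock-in array 4 alone gave 1 lower. Of the further pathway genes 1, Nfyb, was called with the blocks. The labels give the genotypes no shared replicate numbers, so samples could be paired only by neighbouring array numbers, as the blocks do. One other H2-Ab1 probe passed in the fit probe by probe with blocks. Signal over background limits Ciita, whose second probe was above the limit on 3 of 6 arrays of each genotype.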

Other observations

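The pair of an X-like and a Y match described for H2-Aa, H2-Eb1 and H2-DMb1 was found in 23 promoter windows of 20 genes. Of the genes other than the 7 that hold it, 8 were tested, H2-Ob among them, and 4 of the 8 had a lower mean in knock-in samples with a median difference of 0.0059. Mns1 was at 0.50 and Eef1aknmt at -0.17 on the log2 scale, the ends apart from H2-Ob, and both were named after their values were seen. None was called.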
